A study of Homo sapiens with 8 samples.

Results

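The Sm core proteins form the ring that the spliceosomal small nuclear ribonucleoproteins (snRNPs) share. Their genes were taken by symbol from the RNAseq table of U251 cells, a human glioblastoma line, and all 8 (SNRPB, SNRPD1, SNRPD2, SNRPD3, SNRPE, SNRPF, SNRPG and SNRPN) were found among the 61906 genes listed. RNAseq was performed on 4 cultures treated with vehicle (DMSO) and 4 treated for 24 h with 100 nM LLY-283, an inhibitor of the arginine methyltransferase PRMT5. All cultures were of the single line U251 with the genotype given as WT, grown in DMEM with serum, and both groups were collected after the same time. Each group holds 4 biological replicates per the labels.

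Sm proteins are loaded by the SMN complex onto a short uridine-rich stretch, the Sm site, of the U1, U2, U4 and U5 snRNAs, and enter as the pairs SmD1 and SmD2 and SmD3 and SmB with the trimer of SmE, SmF and SmG. Before loading, the PRMT5 methylosome places symmetric dimethyl groups on arginines of the arginine-glycine tails of SmB, SmD1 and SmD3. SmN, encoded by SNRPN in an imprinted region of chromosome 15, is a close relative of SmB that is abundant in brain, and U6 snRNA carries a ring of LSm proteins in place of the Sm ring.

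The Sm site shows what the 8 proteins are assembled on. It was searched in the snRNA transcripts of GENCODE release 44 as an A, then 3 to 6 T, then a G, on the transcript strand, and the match is in capitals, with DNA letters. RNU1-1 (U1), RNU2-1 (U2), RNU4-1 (U4) and RNU5A-1 (U5) each held 1 match, and RNU6-1 (U6) held 0. The matches began at base 126 of the RNU1-1 transcript, base 99 of RNU2-1, base 119 of RNU4-1 and base 88 of RNU5A-1, counted from 1 at the 5′ end. On GRCh38 these genes are at chr1:16514122-16514285 (minus strand), chr17:43233787-43233977 (minus), chr12:120293097-120293237 (minus) and chr15:65296051-65296166 (plus).
RNU1-1: ctcgactgcataATTTGtggtagtggggg
RNU2-1: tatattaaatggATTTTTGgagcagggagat
RNU4-1: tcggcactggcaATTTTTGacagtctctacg
RNU5A-1: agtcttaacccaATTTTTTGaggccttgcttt

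The snRNAs themselves were measured poorly, as the libraries were made by capture of poly(A) RNA and these RNAs carry no poly(A) tail. RNU1-1 was listed at 9.91 to 61.3 TPM in vehicle and 4.38 to 19.8 TPM in LLY-283 libraries, whereas RNU5A-1 was at 0 in all 8 libraries and RNU4-1 at 0 in 5. No comparison of snRNA levels was therefore made.

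Expression is given as TPM, the share of a gene in all transcripts of a library after division by transcript length. The depth of the libraries cannot be read from TPM, and no counting interval is given. Between 24042 and 24757 genes were above 0 per library. Mitochondrially encoded genes held 10.2 to 10.7% of all TPM in vehicle libraries and 10.7% (median) in LLY-283 libraries, with the lowest share, 7.19%, in LLY-283 replicate 4, and the fold changes of the members are given with and without this library. Of the glioblastoma and astroglial markers, VIM (4301 and 4121 TPM in vehicle and LLY-283), CD44 (1576 and 1700), GFAP (810 and 680), NES (483 and 429) and SOX2 (103 and 85.6) were expressed, whereas CHI3L1 did not exceed 0.23 TPM. EPCAM, CDH1, PTPRC, CD3E, PECAM1, CDH5 and the neuronal RBFOX3 did not exceed 0.28 TPM in any library. The other neuronal markers were above this level, with SYT1 at 4.51 to 5.63 TPM and SNAP25 at 0.34 to 0.80 TPM, and the epithelial KRT8 was at 320 and 333 TPM. In bulk samples, fewer cells of a type and less RNA per cell cannot be told apart.

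To determine how the Sm genes are expressed in U251 cells, their TPM values were set in order. In vehicle-treated cells SNRPD2 was highest at 692 ± 10.6 TPM (mean ± SD, n = 4), followed by SNRPF at 384 ± 7.07, SNRPE at 299 ± 7.08, SNRPG at 267 ± 5.35, SNRPB at 246 ± 4.64, SNRPD1 at 173 ± 7.22, SNRPD3 at 79.2 ± 11.4 and SNRPN at 72.7 ± 1.00. The ring holds 1 copy of each of its proteins, with SmN able to take the place of SmB, so that the transcript levels per length were not in the proportions of the ring. All 8 were among the more abundant transcripts, with SNRPD2 above 98.6% and SNRPN above 82.9% of the 14478 genes tested. The ranges of neighbours in the order did not overlap in vehicle libraries, except those of SNRPD3 and SNRPN, which kept their order in 3 of 4 libraries. In LLY-283 libraries the order of the means was the same, and the ranges that overlapped were those of SNRPG and SNRPB.

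The spread between replicates differed among the members. In vehicle libraries the coefficient of variation of TPM was lowest for SNRPN (1.38%) and highest for SNRPD3 (14.4%), with the other 6 between 1.53% and 4.17%. In LLY-283 libraries it ran from 2.66% for SNRPE to 11.1% for SNRPD3.

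**Figure D1:**
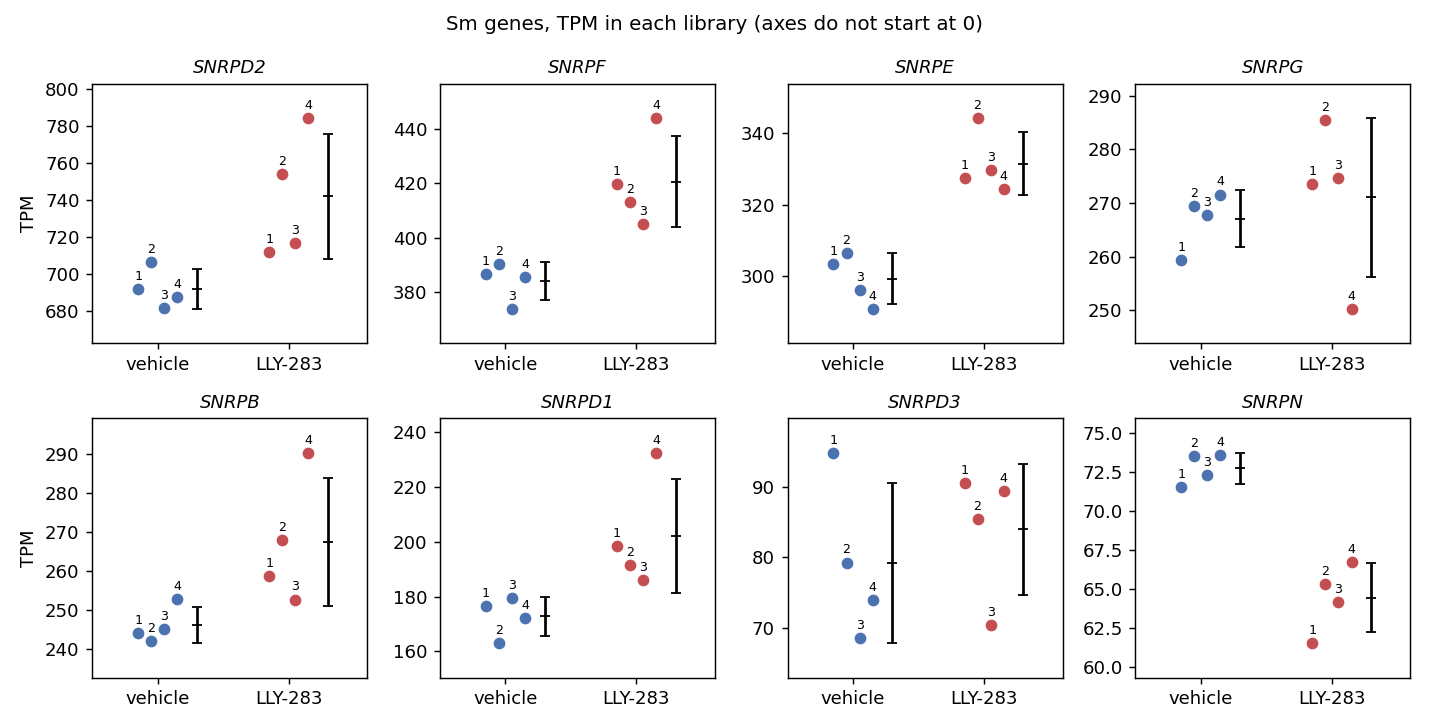
TPM of the 8 Sm genes in each library (points, numbered by replicate) of vehicle (blue) and LLY-283 (red) treated U251 cells, with the mean and SD of each group beside them; the axes differ between panels and do not start at 0. The groups separate upward for SNRPD1, SNRPD2, SNRPE and SNRPF, downward for SNRPN, and overlap for SNRPB, SNRPD3 and SNRPG.

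To determine the effect of LLY-283 on Sm gene expression, the groups were compared with limma on log2(TPM + 0.1) across the 14478 genes whose mean reached 1 TPM, with Benjamini-Hochberg adjustment over all of them. SNRPD1, SNRPE and SNRPF were increased and SNRPN was decreased after LLY-283, whereas SNRPB, SNRPD2, SNRPD3 and SNRPG did not pass an adjusted p-value of 0.05. The changes were small, with none of the 8 past 1.5-fold. Of all genes tested, 8.61% were called higher and 17.6% lower at this threshold (26.2% in either direction), and 3.87% were also past 1.5-fold (0.394% higher, 3.48% lower). The groups of 4 libraries did not overlap for 5 members (4 higher, 1 lower), as against 9.63% of all genes higher and 19.6% lower (29.2% in either direction). The median log2 fold change was 0.11 over the members and -0.05 over all genes tested, and 7 of the 8 members had a positive value.

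**Figure D2:**
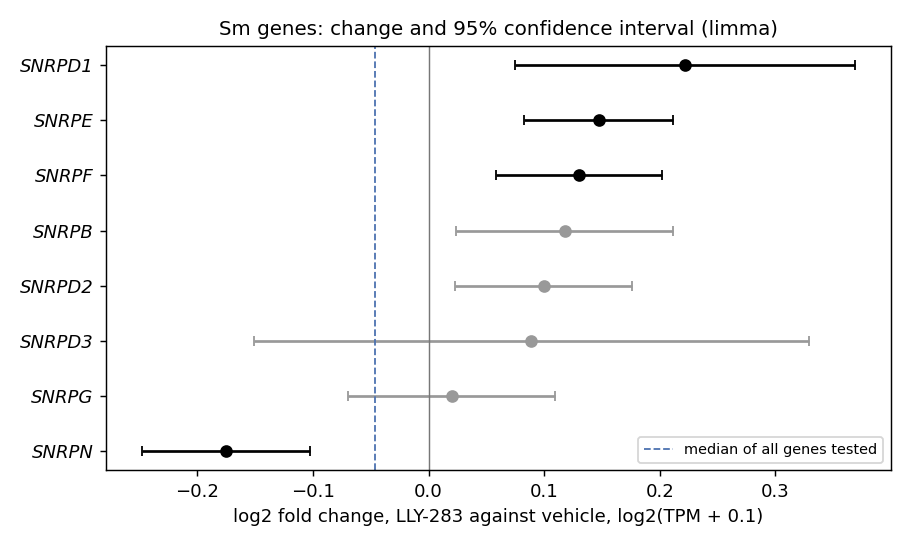
Log2 fold change of each Sm gene, LLY-283 against vehicle on the log2(TPM + 0.1) scale (x axis), with 95% confidence intervals from limma; black marks an adjusted p-value under 0.05 and the dashed line the median of all genes tested. The intervals of SNRPD1, SNRPE, SNRPF, SNRPB and SNRPD2 lie above 0, that of SNRPN lies below it, and those of SNRPD3 and SNRPG include it.

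Of the members whose proteins PRMT5 methylates, SNRPD1 (chr18:21612314-21633524, plus strand, GRCh38) had the largest increase. It was at 176.55, 162.96, 179.52 and 172.39 TPM in the vehicle libraries and at 198.53, 191.70, 185.99 and 232.61 TPM in the LLY-283 libraries. Every LLY-283 value was above every vehicle value, and the highest was that of replicate 4. Its log2 fold change was 0.22 (SE 0.0655, 95% interval 0.07 to 0.37, adjusted p = 0.0340, limma). Without LLY-283 replicate 4 it was 0.15 (adjusted p = 0.0165). The adjusted p-value did not pass the threshold when LLY-283 replicate 1 (0.0609) or any one of vehicle replicates 1 to 4 (0.0587, 0.0878, 0.0524 and 0.0744) was left out, and it ranged from 0.0165 to 0.0878 over all alternatives. The increase was positive in all of them.

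SNRPB (chr20:2461634-2470853, minus strand), which encodes SmB and its longer splice form SmB′, was at 244.12, 242.10, 245.18 and 252.73 TPM in vehicle and 258.72, 267.74, 252.61 and 290.21 TPM in LLY-283 libraries. The groups overlapped only in that vehicle replicate 4 was just above LLY-283 replicate 3. The log2 fold change of 0.12 (SE 0.0418, 95% interval 0.02 to 0.21) did not pass the threshold (adjusted p = 0.0650, limma). It passed without LLY-283 replicate 3 (adjusted p = 0.0410) but not without LLY-283 replicate 4, when the log2 fold change was 0.08 (adjusted p = 0.0545). Over all alternatives its adjusted p-value ranged from 0.0223 to 0.137.

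SNRPD3 (chr22:24555958-24582052, plus strand), the third substrate of the methylosome among the members, had the widest interval. It was at 94.93, 79.27, 68.46 and 73.94 TPM in vehicle and 90.67, 85.42, 70.42 and 89.41 TPM in LLY-283 libraries, so that the groups overlapped over most of their ranges. The log2 fold change was 0.09 (SE 0.107, 95% interval -0.15 to 0.33, adjusted p = 0.578, limma), an interval that allows an increase as large as that of SNRPD1. The value moved with single libraries, to 0.18 without vehicle replicate 1, 0.02 without vehicle replicate 3, 0.05 without LLY-283 replicate 1, 0.17 without LLY-283 replicate 3 and 0.06 without LLY-283 replicate 4 (adjusted p = 0.757 for the last), and it passed the threshold under no alternative (adjusted p from 0.0635 to 0.903). A second protein-coding gene of the annotation, ENSG00000286070 (chr22:24556007-24628987), lies on the same strand and shares 548 exon bases with it, 14.0% of the exon bases of SNRPD3. RSEM divides reads in shared exons between both genes by estimation, so that their separate values are uncertain.

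ENSG00000286070 was listed at a higher level than SNRPD3 itself, at 128.15, 139.35, 132.55 and 143.01 TPM in vehicle and 138.14, 142.40, 160.12 and 168.83 TPM in LLY-283 libraries. SNRPD3 held 34.1 to 42.6% of the sum of both genes in vehicle and 30.5 to 39.6% in LLY-283 libraries. The sum was 215 ± 9.62 TPM in vehicle and 236 ± 14.6 TPM in LLY-283 libraries, and the groups, which overlapped for each gene alone, did not overlap for the sum (201 to 223 against 228 to 258 TPM). With ENSG00000286070 added to SNRPD3, an alternative chosen after seeing the data, the log2 fold change was 0.14 (SE 0.0481) and did not pass the threshold (adjusted p = 0.0635, limma).

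SNRPD2 (chr19:45687460-45692569, minus strand), the partner of SmD1 and the most abundant member, was at 692.09, 706.70, 681.78 and 688.04 TPM in vehicle and 712.30, 754.47, 717.22 and 784.49 TPM in LLY-283 libraries. All LLY-283 values were above all vehicle values, with LLY-283 replicate 1 close to vehicle replicate 2. The log2 fold change of 0.10 (SE 0.0340, 95% interval 0.02 to 0.18) did not pass the threshold (adjusted p = 0.0573, limma). It passed without LLY-283 replicate 1 (adjusted p = 0.0434), and was 0.07 without LLY-283 replicate 4 (adjusted p = 0.0519), within a range of 0.0131 to 0.135 over all alternatives. At its 5′ end SNRPD2 shares 54 exon bases with QPCTL on the opposite strand, and whether the counting used strand is not stated. QPCTL, which encodes a glutaminyl cyclase of the Golgi, was lower after LLY-283, at 7.16 ± 0.122 TPM as against 9.51 ± 0.506 TPM in vehicle (limma, log2 fold change -0.40, adjusted p = 0.00108).

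Of the trimer genes, SNRPE and SNRPF were called higher and SNRPG was not, and the difference in their changes was not tested. SNRPE (chr1:203861599-203871152, plus strand) was at 303.47, 306.62, 296.18 and 290.95 TPM in vehicle and 327.57, 344.28, 329.70 and 324.32 TPM in LLY-283 libraries, with no overlap. Its log2 fold change was 0.15 (SE 0.0288, 95% interval 0.08 to 0.21, adjusted p = 0.00570, limma). Unlike SNRPD1, SNRPE was lowest among LLY-283 libraries in replicate 4, and without that library its log2 fold change was 0.16 (adjusted p = 0.00318). The call held under each alternative tried, with adjusted p-values between 0.00256 and 0.0216.

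SNRPF (chr12:95858952-95903828, plus strand) was at 386.58, 390.44, 374.02 and 385.58 TPM in vehicle and 419.75, 413.32, 405.20 and 444.04 TPM in LLY-283 libraries. The groups did not overlap, and replicate 4 was the highest of all libraries. The log2 fold change was 0.13 (SE 0.0321, 95% interval 0.06 to 0.20, adjusted p = 0.0162, limma), and 0.10 without LLY-283 replicate 4 (adjusted p = 0.00860). Its call also held under each alternative tried (adjusted p from 0.00473 to 0.0474).

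SNRPG (chr2:70281362-70293740, minus strand) was at 259.36, 269.41, 267.84 and 271.58 TPM in vehicle and 273.61, 285.50, 274.72 and 250.30 TPM in LLY-283 libraries. LLY-283 replicates 1 to 3 were above all vehicle libraries and replicate 4 was below all of them. The log2 fold change was 0.02 (SE 0.0397, 95% interval -0.07 to 0.11, adjusted p = 0.746, limma), and 0.06 without LLY-283 replicate 4 (adjusted p = 0.116). Without LLY-283 replicate 2 the fold change turned to -0.01 (adjusted p = 0.936, over a range of 0.0771 to 0.941 for all alternatives). The ratio of SNRPG to SNRPE in TPM was 0.893 ± 0.0339 in vehicle and 0.817 ± 0.0305 in LLY-283 libraries (n = 4). The groups did not overlap for this ratio (0.855 to 0.933 against 0.772 to 0.835). In vehicle and LLY-283 libraries, SNRPF to SNRPE was 1.28 and 1.27, SNRPD1 to SNRPD2 0.250 and 0.272, and SNRPD3 to SNRPB 0.322 and 0.314. The groups overlapped for each of these other ratios. The ratio of SNRPD3 to SNRPB takes ENSG00000286070 as a separate gene.

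Near-identical copies of the members are a further source of uncertainty, as RSEM divides reads between them too. The table lists 37 rows named as numbered copies, of which 29 were at 0 in all libraries and 6 had a mean of at least 1 TPM. SNRPE has 10 copies, whose sum was 5.14% of the SNRPE level in vehicle and 4.38% in LLY-283 libraries. The vehicle value rests in part on SNRPEP11, at 15.28 TPM in vehicle replicate 2 and 0 in the other 7 libraries, and was 3.87% without that library. The highest was SNRPEP4, with 98.6% identity to the SNRPE transcript over 279 bases and 9.25 to 15.1 TPM. SNRPG has 20 copies, with sums of 9.21% and 10.1% of the parent, and the highest, SNRPGP10, had 98.2% identity over 225 bases and 12.05 to 25.99 TPM. With the copies added to their parents, chosen after seeing the data, the log2 fold change was 0.14 for SNRPE (adjusted p = 0.0163, limma) and 0.03 for SNRPG (adjusted p = 0.601), and no call among the members changed.

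Apart from ENSG00000286070, QPCTL, SNURF and SNHG14, the genes that overlap a member had group means of 1.005 TPM or less. ENSG00000256566 shares 256 exon bases with SNRPB (0.383 TPM in vehicle and 0.448 TPM in LLY-283 libraries), CCDC38 shares 108 with SNRPF on the opposite strand (0.0375 and 0.0600 TPM), and ENSG00000214265 shares 541 with SNRPN (0.175 and 0.0975 TPM). ENSG00000286110 shares 350 with SNRPN and was at a mean of 0 TPM in both groups. ENSG00000285030 within SNRPF and ENSG00000280118, RPL5P1 and RPS27P2 within SNRPN share 0 exon bases with them, and the highest group mean among these was 1.005 TPM (RPL5P1, LLY-283).

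SNRPN (chr15:24823637-24978723, plus strand) was the only member with a lower level after LLY-283. It was at 71.52, 73.49, 72.29 and 73.61 TPM in vehicle and 61.49, 65.32, 64.13 and 66.72 TPM in LLY-283 libraries. The groups were well separated and both were tight, with the highest LLY-283 value in replicate 4. The log2 fold change was -0.18 (SE 0.0324, 95% interval -0.25 to -0.10, adjusted p = 0.00427, limma), and -0.19 without LLY-283 replicate 4 (adjusted p = 0.00209). The SNRPN transcript was 81.9% identical to that of SNRPB over the 697 bases that aligned.

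The value of SNRPN depends on how reads are divided with SNURF, a short protein encoded upstream on the same transcript, since both genes share 813 exon bases, 52.1% of the exon bases of SNURF. SNURF was listed at 9.90, 4.62, 14.42 and 5.59 TPM in vehicle and 6.49, 13.85, 8.89 and 13.50 TPM in LLY-283 libraries, with wide overlap (log2 fold change 0.38, adjusted p = 0.475, limma). The sum of both genes was 81.4 ± 3.82 TPM in vehicle and 75.1 ± 5.71 TPM in LLY-283 libraries, and the groups overlapped (78.1 to 86.7 against 68.0 to 80.2 TPM). With SNURF added to SNRPN, an alternative chosen after seeing the data, the log2 fold change was -0.12 (SE 0.0567) and the call was lost (adjusted p = 0.160, limma). Under the other alternatives the decrease of SNRPN passed the threshold.

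Other genes of the imprinted region were examined beside it. Of 11 listed, 9 were in the table under their symbol and 4 were expressed highly enough to be tested, of which 2 were decreased, as against 17.6% of all genes tested. SNHG14, the long non-coding host transcript that continues downstream of SNRPN and shares 141 exon bases with it, was at 46.7 ± 3.08 TPM in vehicle and fell to 35.2 ± 2.92 TPM with no overlap (limma, log2 fold change -0.41, adjusted p = 0.00230). MKRN3, an imprinted ring finger gene, went from 5.73 ± 0.695 TPM in vehicle down to 3.74 ± 0.491 TPM with LLY-283 (limma, log2 fold change -0.60, adjusted p = 0.00645), the only one of them past 1.5-fold. Its log2 fold change ran from -0.69 to -0.45 over the alternatives, so that it was not past 1.5-fold in all of them, and with a filter at a mean of 5 TPM it was not tested, which left 1 gene of the region decreased. UBE3A, a ubiquitin ligase gene on the opposite strand, had a log2 fold change of -0.03 (adjusted p = 0.787).

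The promoters of SNRPF and SNRPB, which moved closely with the median of the members, and of SNRPN, which moved against it, are shown from the RefSeq annotation of GRCh38.p14, from 250 bases before to 30 bases after a listed start. Capitals mark motifs found on either strand among CCGGAAG (the ETS core), AAGATGGC (YY1), CACGTG (E-box), GGGCGG (the Sp and KLF GC box), CCAAT (NF-Y) and the NRF1 motif. The SNRPF window held the reverse complement of the GC box and 2 CCAAT boxes, the SNRPB window held 1 ETS core, and the SNRPN window, whose start is that of SNURF, held none. These are chr12:95858702-95858981 (plus strand), chr20:2470760-2471039 (minus) and chr15:24954737-24955016 (plus).
SNRPF: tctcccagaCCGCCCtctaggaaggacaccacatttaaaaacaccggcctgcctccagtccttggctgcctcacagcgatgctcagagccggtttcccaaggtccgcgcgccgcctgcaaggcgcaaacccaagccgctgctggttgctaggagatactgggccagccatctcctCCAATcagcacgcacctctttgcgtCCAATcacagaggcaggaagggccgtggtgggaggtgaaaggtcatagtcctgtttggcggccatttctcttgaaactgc
SNRPB: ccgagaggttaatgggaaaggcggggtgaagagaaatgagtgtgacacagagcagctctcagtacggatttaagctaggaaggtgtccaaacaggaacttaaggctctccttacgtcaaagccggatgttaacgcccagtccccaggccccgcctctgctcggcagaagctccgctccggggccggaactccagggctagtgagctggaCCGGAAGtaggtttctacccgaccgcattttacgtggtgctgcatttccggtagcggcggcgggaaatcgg
SNRPN: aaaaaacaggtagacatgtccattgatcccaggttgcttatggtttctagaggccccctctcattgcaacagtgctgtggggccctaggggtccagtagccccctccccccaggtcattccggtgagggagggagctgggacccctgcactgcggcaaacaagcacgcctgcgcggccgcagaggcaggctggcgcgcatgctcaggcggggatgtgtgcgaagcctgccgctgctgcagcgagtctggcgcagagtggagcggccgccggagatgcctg

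The promoter table held 7 of the 8 members, not SNRPD1, in 15 windows. CCGGAAG was in a listed window of 4 of them (SNRPB, SNRPD2, SNRPE and SNRPG), as against 10.3% of all 35116 windows and 12.2% of all 27305 genes in the table. GGGCGG was in 4 (SNRPD2, SNRPD3, SNRPF and SNRPN; 45.0% of windows, 48.3% of genes) and CCAAT in 3 (SNRPD2, SNRPF and SNRPN; 34.6% of windows, 39.7% of genes). AAGATGGC was in 1, SNRPN, in a window other than the one printed (2.89% of windows, 3.52% of genes). CACGTG (7.26% of windows, 8.77% of genes) and the NRF1 motif (1.24% of windows, 1.52% of genes) were in 0. CCGGAAG was in windows of members that were called higher (SNRPE) and of members that were not called. The members had more windows per gene than the table as a whole, and so more chances of a match. The table is also not limited to expressed genes, and enrichment of a motif was not tested.

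To describe the members as one complement, their TPM values were summed. The sum was 2228.62, 2230.99, 2185.27 and 2208.82 TPM in vehicle and 2342.64, 2407.75, 2299.99 and 2482.10 TPM in LLY-283 libraries. The groups did not overlap, and the mean was higher by 170 TPM or 7.67% (2213 ± 21.2 against 2383 ± 79.5 TPM). Without LLY-283 replicate 4, which had the highest sum and the lowest mitochondrial share, the difference was 137 TPM. SNRPD2 made up 31.3% of the sum in vehicle and 31.1% in LLY-283 libraries.

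SNRPN made up 22.8 ± 0.324% of the TPM of SNRPB and SNRPN in vehicle and 19.4 ± 0.657% in LLY-283 libraries. The ranges did not overlap (22.6 to 23.3% against 18.7 to 20.2%), with SNRPB listed higher and SNRPN lower in the means. As with the fold change of SNRPN, this share takes SNURF as a separate gene.

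**Figure D3:**
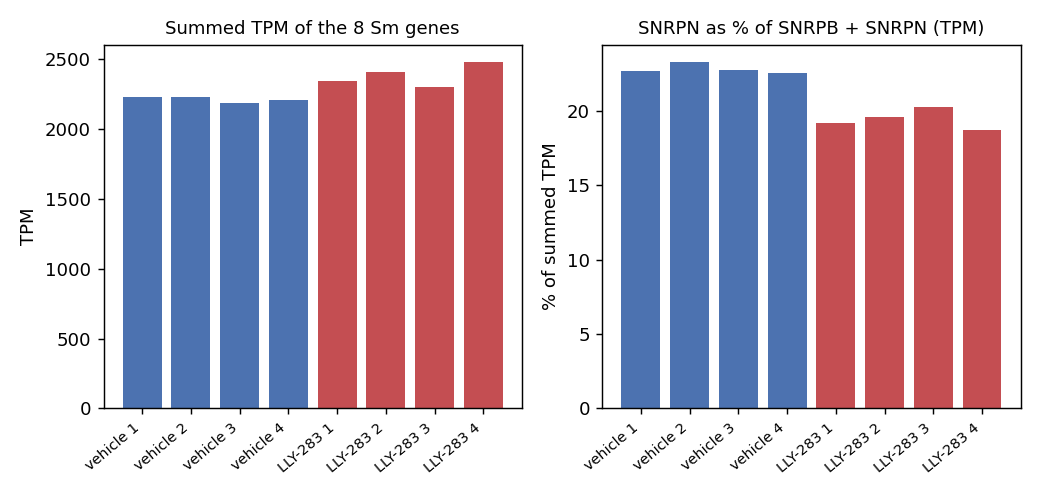
Summed TPM of the 8 Sm genes (left) and SNRPN as a percentage of the TPM of SNRPB and SNRPN (right) in each library, vehicle in blue and LLY-283 in red; each bar is 1 library and both axes start at 0. All 4 LLY-283 sums (2300 to 2482 TPM) are above the vehicle sums, and all 4 LLY-283 shares (18.7 to 20.2%) are below the vehicle shares.

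Across the 8 libraries, the centred log2(TPM + 0.1) values of SNRPD2 and SNRPF followed the median of the members most closely, with root mean square differences of 0.02 for each. SNRPB (0.03), SNRPE (0.05), SNRPD1 (0.09) and SNRPG (0.09) departed further, and SNRPD3 and SNRPN (0.15 each) furthest. The median is taken over these same genes, so that members with a middling fold change lie near it by construction. The median profile lay between -0.07 and -0.03 in the vehicle libraries and at 0.04, 0.07, -0.00 and 0.14 in LLY-283 replicates 1 to 4. Replicate 4 was thus the farthest from vehicle and replicate 3 the nearest. LLY-283 replicate 4 was the highest of all 8 libraries for 4 members and the lowest LLY-283 library for 2, SNRPE and SNRPG, and the part of its low mitochondrial share in these values was not tested.

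With mitochondrial genes left out of the TPM total, SNRPB (adjusted p = 0.0341, limma) and SNRPD2 (adjusted p = 0.0229) were called as well, for 5 members higher and 1 lower. The 7 positive fold changes stayed positive under quantile normalization, median-of-ratios scaling and removal of mitochondrial genes.

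**Figure D4:**
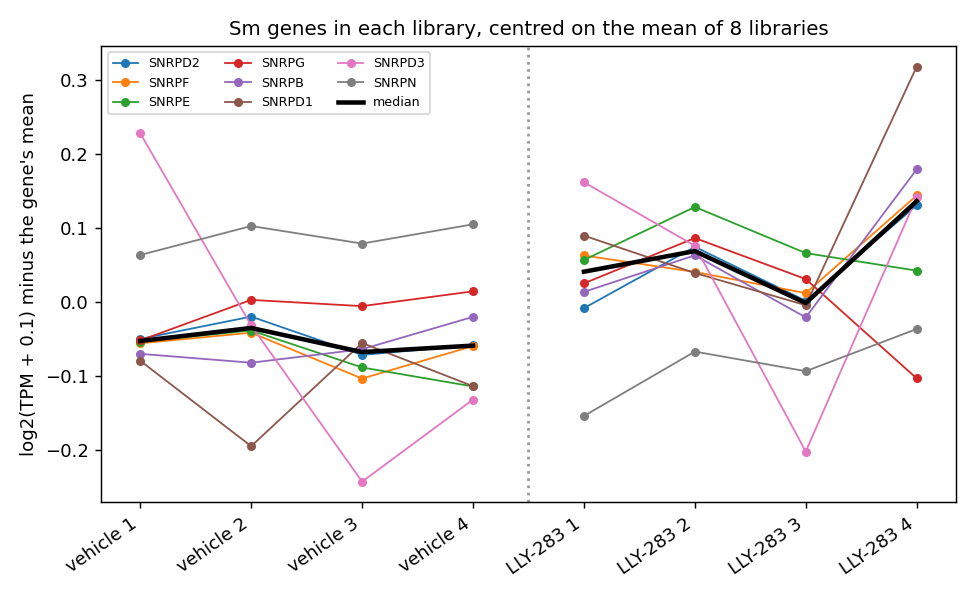
Log2(TPM + 0.1) of each Sm gene in each library minus the mean of that gene over the 8 libraries, vehicle left and LLY-283 right of the dotted line; the black line is the median of the 8 genes, and the lines join libraries only to guide the eye. SNRPD2 and SNRPF run along the median, SNRPN runs against it, and SNRPD3, taken apart from ENSG00000286070, varies most within both groups.

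Among 9082 genes averaging 10 TPM or more, those with profiles nearest to the median of the Sm genes were DIABLO, a mitochondrial activator of caspases (root mean square difference 0.0144 on the log2 scale), RPL5, a protein of the large ribosomal subunit (0.0147), SDF4, a calcium-binding protein of the Golgi (0.0176), EIF4H, a translation initiation factor (0.0201), and NIPSNAP1, a mitochondrial protein (0.0203). The profiles were compared over 8 libraries of 2 groups, so that genes of a like fold change are near each other by construction. RPL5 was at 1409, 1405, 1395 and 1416 TPM in vehicle and 1509, 1533, 1494 and 1610 TPM in LLY-283 libraries.

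The genes that act on the Sm proteins before and after ring assembly were then examined, and their counts stand against the 8.61% of all genes tested that were called higher and the 17.6% called lower. In the PRMT5 methylosome, 1 of 5 genes was increased and 0 were decreased (26.2% of all genes were called in either direction; median log2 fold change 0.04). The increased gene was RIOK1, a kinase that brings substrates to PRMT5, at 14.7 ± 0.764 TPM in vehicle and 16.6 ± 0.473 TPM in LLY-283 libraries (log2 fold change 0.17, adjusted p = 0.0287, limma). Its call was lost when vehicle replicate 2, 3 or 4 (adjusted p = 0.0584, 0.0682 and 0.0803) or LLY-283 replicate 1 or 3 (0.0708 and 0.0710) was left out, over a range of 0.00819 to 0.0803 for all alternatives. Without LLY-283 replicate 4, 1 gene was decreased, WDR77, the partner of PRMT5 in the methylosome (log2 fold change -0.12, adjusted p = 0.0349). PRMT5 itself, the enzyme that LLY-283 inhibits, was at 100.0 ± 5.03 and 100.4 ± 4.91 TPM, with a 95% interval of -0.10 to 0.11 for its log2 fold change.

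In the SMN complex, which loads the ring onto snRNA, 3 of 10 genes were increased and 2 decreased (8.61% and 17.6% of all genes; median log2 fold change 0.07). SMN1 was at 58.72, 53.03, 61.25 and 58.85 TPM in vehicle and 74.87, 70.50, 72.40 and 73.85 TPM in LLY-283 libraries, without overlap (log2 fold change 0.33, adjusted p = 9.29e-04, limma). SMN2 is a near-identical copy of SMN1, so that the division between them is uncertain, and its log2 fold change was 0.21 (adjusted p = 0.0196, limma). The SMN2 call was lost when vehicle replicate 1, 3 or 4 or LLY-283 replicate 3 was left out (adjusted p = 0.0540, 0.0555, 0.0515 and 0.0530), whereas those of SMN1 and DDX20 held under each alternative tried. The RNA helicase gene DDX20 rose from 22.2 ± 0.205 TPM in vehicle to 26.7 ± 1.47 TPM with LLY-283 (limma, log2 fold change 0.26, adjusted p = 0.00285). GEMIN6 was at 24.2 ± 1.48 TPM in vehicle and fell to 20.2 ± 1.47 TPM (limma, log2 fold change -0.26, adjusted p = 0.0157). GEMIN7, its binding partner in the complex, was at 27.5 ± 0.732 TPM and fell to 24.2 ± 1.51 TPM (limma, log2 fold change -0.18, adjusted p = 0.0228). The call of GEMIN6 held under each alternative tried, and that of GEMIN7 was lost without vehicle replicate 1, vehicle replicate 3 or LLY-283 replicate 3 (adjusted p = 0.0619, 0.0543 and 0.0545), within a range of 0.0171 to 0.0634.

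Of 3 other genes whose proteins bind methylated arginine through a Tudor domain, SMNDC1, which encodes the splicing factor SPF30, was increased from 40.97 ± 1.81 TPM in vehicle to 61.6 ± 4.66 TPM with LLY-283 without overlap (limma, log2 fold change 0.59, adjusted p = 1.91e-04), at the edge of the 1.5-fold limit. None of the 7 genes for snRNA export, cap hypermethylation and import passed the threshold (median log2 fold change 0.06). At an unadjusted p-value under 0.05, which 38.6% of all genes tested passed, 2 of them did, PHAX (log2 fold change 0.13) and TGS1 (0.10), the genes for the snRNA export adaptor and the cap hypermethylase. Under median-of-ratios scaling 3 of the 7 were called higher (KPNB1, PHAX and TGS1), and under quantile normalization 1 (TGS1). More genes were called higher under these scalings in the whole table as well, 1927 and 1871 of 14478 as against 1247.

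Of the LSm genes, relatives of the Sm genes, 0 of 10 were increased and 1 was decreased (8.61% and 17.6% of all genes; median log2 fold change -0.05). LSM8, which encodes the subunit particular to the nuclear ring on U6, was at 47.63, 45.99, 43.31 and 39.54 TPM in vehicle and 32.46, 27.61, 30.02 and 27.45 TPM in LLY-283 libraries. All LLY-283 values were below all vehicle values, with a log2 fold change of -0.58 (SE 0.0708, adjusted p = 5.15e-04, limma). Without LLY-283 replicate 4, 3 LSm genes were decreased, LSM8 with LSM10 of the U7 ring and LSM7 of the U6 ring (log2 fold changes -0.10 and -0.11, adjusted p = 0.0464 and 0.0288). Whether the LSm genes differed from the Sm genes as a group was not tested.

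Of 5 proteins that bind U1 or U2 outside the Sm ring, the genes of the 2 that form a pair on U2 were increased (8.61% of all genes). SNRPA1 was at 236 ± 1.81 TPM in vehicle and rose to 284 ± 6.95 TPM (limma, log2 fold change 0.27, adjusted p = 1.55e-04). SNRPB2 was at 97.0 ± 2.21 TPM and rose to 107 ± 3.31 TPM (limma, log2 fold change 0.14, adjusted p = 0.00998), and neither gene's groups overlapped. The U1 genes SNRNP70, SNRPA and SNRPC had log2 fold changes of 0.00, 0.07 and 0.06 and were not called. None of the 7 genes of the U11 and U12 snRNPs, which carry the same Sm ring in the minor spliceosome, passed the threshold (median log2 fold change -0.04), and 0 of the 7 did at an unadjusted p-value under 0.05, as against 38.6% of all genes. PDCD7 was called higher without vehicle replicate 3 (log2 fold change 0.15, adjusted p = 0.0377, limma) and under median-of-ratios scaling.

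**Figure D5:**
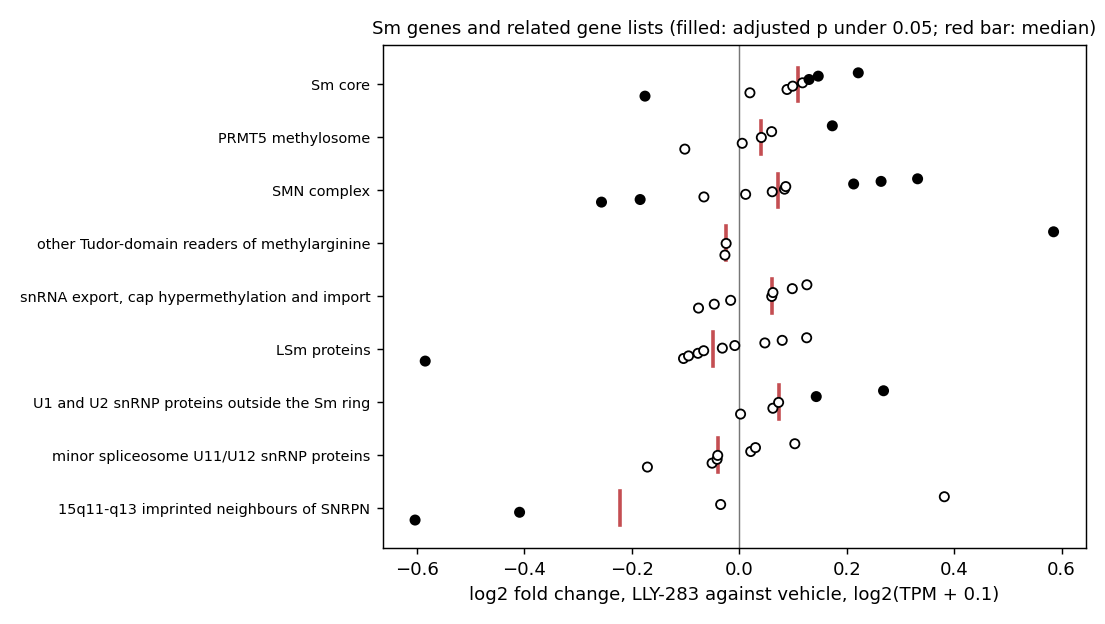
Log2 fold change on the log2(TPM + 0.1) scale (x axis) of every tested gene of the Sm core and of 8 related gene lists (rows); filled points have an adjusted p-value under 0.05 and the red bar is the median of the list. The median is 0.11 for the Sm core, and LSM8, MKRN3, SMNDC1 and SNHG14 lie farthest from 0. SNURF, SMN1, SNRPA1, DDX20 and GEMIN6 also lie farther from 0 than any Sm gene.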

How the data were processed

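Poly(A) RNA of 8 cultures was sequenced. Per the submitters' processing notes, the authors used bcl2fastq 2.20, cutadapt 1.18, STAR 2.7.0f, Picard and RSEM 1.3.1 on hg38, and they deposited TPM per gene and library. The methods of the paper name later versions of STAR and RSEM, so that the versions used are uncertain. TPM keeps no depth and moves with library composition. Strandedness is not stated. From these TPM values, log2(TPM + 0.1) of the 14478 genes whose mean reached 1 TPM was fitted with limma 3.58.1 (lmFit, eBayes with trend) in R 4.3.3, with no covariates. The fit was tested on simulated data with changes far larger than those of the members. That test does not bear on changes as small as theirs. Positions and overlaps came from GENCODE release 44, whose versions of the 8 genes equal those of the table, and promoters from RefSeq. Transcript identities came from blastn alignment of 1 transcript per gene. The members and lists were chosen with earlier results of these data known. The text names all members, per list the strongest call by p-value each way, genes that overlap a member, the most abundant copies and the 5 genes nearest in profile; all others were picked for naming with their values in view. One marker gene is not reported here. Alternatives comprised pseudocounts, filters, scalings, eBayes without trend, a replicate block and each library left out in turn; further ones were chosen after seeing the data.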

Additional observations from a re-analysis of the deposited data

How the results depend on the processing

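Each of the 8 fold changes was recomputed under 21 alternatives, of which 4 (copies added to their parents, ENSG00000286070 added to SNRPD3, SNURF added to SNRPN, and mitochondrial genes and LLY-283 replicate 4 left out) were chosen after seeing the data. SNRPE, SNRPF and SNRPD3 kept their direction and side of the threshold in all 21. SNRPD1 lost its call in 7, among them the fit with no filter on low values (adjusted p = 0.0816, limma) and eBayes without trend (0.0681). SNRPB gained one in 6 and SNRPD2 in 5, under quantile normalization (0.0223 and 0.0131) and median-of-ratios scaling (0.0317 and 0.0299) among others. SNRPN lost its call in 1, with SNURF added. SNRPG reversed in 1, to -0.00563, without LLY-283 replicate 2 (the highest value with a library left out was 0.0576). The members called higher numbered 3. They numbered 2 with no filter, under eBayes without trend and with any one vehicle library left out, 4 without LLY-283 replicate 3 and under the block below, and 5 under quantile normalization, under median-of-ratios scaling, with mitochondrial genes left out, and with mitochondrial genes and LLY-283 replicate 4 left out. The members called lower numbered 1, and 0 with SNURF added to SNRPN. The cause was not tested. Over all genes, 1871 were called higher under quantile normalization and 1927 under median-of-ratios scaling, against 1247, while those called lower numbered 1820, 1866 and 2541. Of the related genes, those called lower in the LSm list numbered 3 with mitochondrial genes left out and 2 under quantile normalization, against 1, with 1 called higher (LSM5) under median-of-ratios scaling. In the methylosome RIOK1 was not called with no filter (adjusted p = 0.0512), and WDR77 was called lower with mitochondrial genes left out (0.0350). In the SMN complex, under median-of-ratios scaling, GEMIN7 was not called (0.0634) and STRAP was called higher (0.0158), as it was without vehicle replicate 3 (0.0386).

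Over all genes tested, replicate numbers did not pair the libraries, as the deviations of same-numbered libraries correlated between -0.0851 and 0.0320. With a replicate block, 4 members were called higher and 1 lower, with SNRPB added (adjusted p = 0.0484, limma). The SE of SNRPD3 was 0.0557 with the block as against 0.107 without it, and SNRPD3 was not called (adjusted p = 0.288, limma). As TPM keeps no depth, what counting error limits cannot be given.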
